A study of Danio rerio with 20 samples.

Results

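The genes described here are 4 transcription regulators of the B lineage in zebrafish leukemias, out of 32105 genes in the count table: pax5 (ENSDARG00000037383), the E-protein genes tcf12 (ENSDARG00000004714) and tcf3b (ENSDARG00000099999), and the corepressor gene cbfa2t2 (ENSDARG00000074337). They were chosen by identifier, with earlier results of these data known, and all 4 passed the filter on low counts. For pax5 and cbfa2t2 this was only through the low tumors, since a high tumor held at most 6 and 3 counts of them. Polyadenylated RNA of bulk leukemia cells, whose labelled cell type is blood, was sequenced from zebrafish of the CG1 strain. The labels place 8 tumors in a group of high and 3 in a group of low self-renewal capacity, that is, the capacity of the cells to start a new leukemia. They name no driver transgene, treatment, age or fish, so what the groups share beyond the strain is not stated. The series text gives another division, 6 high and 5 low tumors, without naming them, and the sample labels were followed. Of the 11 tumors, 9 had 2 libraries, which were summed, and 2 (8.4.1.1.1 and 14.1.1.1) had 1, with 6015050 to 16951341 counts per library.

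Pax5 is a paired-domain transcription factor that commits mouse progenitors to the B lineage by switching on B-cell genes and silencing genes of other lineages. E proteins are basic helix-loop-helix factors that pair with each other or with tissue-specific partners. In the mouse, the products of Tcf3 act above Pax5 in B-cell development, and Tcf12 and Tcf3 both act in developing T cells. ID proteins bind E proteins and keep them from DNA. The MTG (ETO) corepressors, to which Cbfa2t2 belongs, bind E proteins and bring in corepressors and histone deacetylases.

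The first question was how much of each regulator the high and low tumors held. In each low tumor pax5, tcf12 and cbfa2t2 stood above all 8 high tumors, whereas tcf3b in each high tumor stood above all 3 low tumors. The fitted differences were 1118-fold for pax5, 427-fold for cbfa2t2, 12.1-fold for tcf12 and 2.02-fold for tcf3b. With only 18 and 9 counts in the high tumors together, the sizes for pax5 and cbfa2t2 depend on the prior count of the fit. Over all 16008 genes tested, 5.84% had every low tumor above every high tumor and 6.01% had the reverse.

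pax5 stood at 115.7, 178.6 and 130.8 CPM (counts scaled to a common normalized library size) in low tumors 9.2, 10.2 and 12.2. Its lowest, median and highest levels in the 8 high tumors were 0, 0.0950 and 0.510 CPM. The low tumors were thus close to each other, within 1.54-fold, and the nearest high tumor was 227-fold below the nearest low one. The high tumors together held 18 counts and the low tumors 10903. The log2 fold change, high over low, was -10.13 ± 0.64 (SE, 8 against 3 tumors, adjusted p = 6.84e-06 by the edgeR quasi-likelihood test, Benjamini-Hochberg adjusted, as are all adjusted p-values of fold changes here). All 4 regulators passed that test at an adjusted p under 0.05, as did 9.20% of all genes tested in either direction. The 4 were chosen with earlier results of these data known, so their passing is no independent result beside that share. Of all genes tested, 5.20% were lower and 4.0% higher in the high tumors.

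The few pax5 counts of the high tumors were not spread evenly. Tumor 14.1.1.1 held 6 counts, or 0.510 CPM (95% exact Poisson interval 0.187 to 1.11), and tumor 8.4.1.1.1 held 3, or 0.258 CPM (0.0531 to 0.753). Tumors 4.3.1 and 15.2 held 0 counts, which allows a level of up to 0.129 and 0.149 CPM (3 counts). By the same 95% exact Poisson interval the upper ends were 0.159 CPM in 4.3.1 and 0.183 CPM in 15.2. The interval of 14.1.1.1 therefore lay only just above that of 15.2. The highest and lowest tumors were picked for this after their values were seen. These intervals and limits cover counting error only. Tumors 14.1.1.1 and 8.4.1.1.1 also held the most of an EBF1 gene (ENSDARG00000099849), a factor of early B-cell development, at 11.7 and 10.4 CPM, against 0.388 to 1.78 CPM in the other 6 high tumors. Both 14.1.1.1 and 8.4.1.1.1 had only 1 library and the lowest total counts of the series (11573276 and 12160723), and the part of this was not tested. The summed level of 13 B-cell marker genes was 98.8 CPM in 14.1.1.1, the highest of the high tumors, but 19.0 CPM in 8.4.1.1.1. A single gene, CD81 (ENSDARG00000036080), made up 89.5 CPM of the sum in 14.1.1.1, and SYK made up 30.6 of the 51.7 CPM in 13.1.1, so the order of these sums rests on single genes. In bulk RNA, fewer cells of a type and less RNA per cell cannot be told apart.

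**Figure D1:**
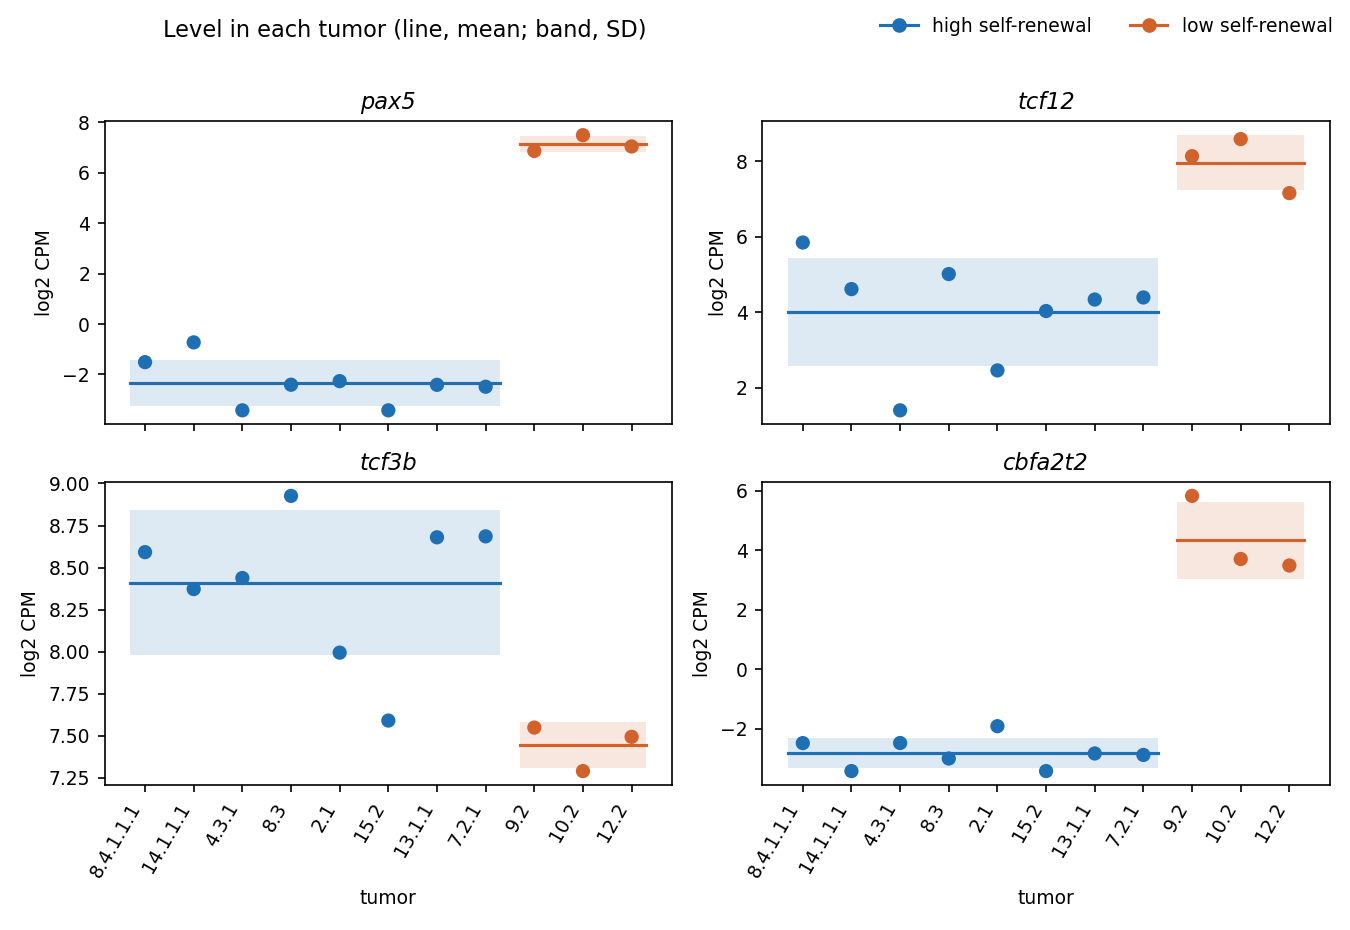
The plot by tumor gives the level of each of the 4 genes as log2 CPM (vertical axes, each with its own range) in 8 high (blue) and 3 low (orange) tumors, 1 point per tumor, with the group mean as a line and the SD as a band. In each panel the groups do not overlap, pax5 has the widest gap and tcf3b the narrowest.

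tcf12, which encodes the E protein known in mammals as HEB, was also lower in the high tumors, but it stayed detectable in each of them. Low tumors 9.2, 10.2 and 12.2 held 281.9, 386.1 and 142.8 CPM. The high tumors ranged from 2.55 CPM in 4.3.1 through a median of 20.5 to 57.6 CPM in 8.4.1.1.1. This was a 22.6-fold range within a single group, against 2.70-fold within the low tumors. The libraries of a tumor differed far less, by a median of 1.07-fold and at most 1.56-fold (in 4.3.1) over 9 tumors. The log2 fold change was -3.59 ± 0.64 (adjusted p = 0.00574), lower in 8 of 8 high tumors.

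Most neighbours in the order of tcf12 within the high group differed by more than counting error. Libraries of a tumor varied beyond that error over all genes with enough counts. Their chi-square per degree of freedom ran from 1.31 (tumor 9.2) to 31.3 (12.2), so Poisson intervals here are too narrow to settle an order. From the top the order was 8.4.1.1.1, 8.3, 14.1.1.1, 7.2.1, 13.1.1, 15.2, 2.1 and 4.3.1. The 95% exact Poisson intervals overlapped between 13.1.1 (18.3 to 22.1 CPM) and 7.2.1 (19.1 to 22.9 CPM), and between 7.2.1 and 14.1.1.1 (21.7 to 27.4 CPM). The lowest pair, 4.3.1 at 2.55 CPM and 2.1 at 5.40 CPM, stood apart from the other 6 tumors, which began at 16.3 CPM.

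tcf3b, a gene for an E2A-type E protein, showed the opposite direction and a small difference. Its level was 187.1, 156.3 and 180.1 CPM in low tumors 9.2, 10.2 and 12.2. In the high tumors the lowest, median and highest levels were 192.6 (tumor 15.2), 366.2 and 486.4 CPM (tumor 8.3). Tumor 15.2 lay only 1.03-fold above low tumor 9.2, less than the 1.20-fold between its own libraries, so these neighbours did not differ beyond their spread. The log2 fold change was 1.01 ± 0.27 (adjusted p = 0.0367), higher in 8 of 8 high tumors. The call was lost without tumor 8.4.1.1.1 (adjusted p = 0.0584), 13.1.1 (0.0583), 7.2.1 (0.0593), 9.2 (0.0889), 10.2 (0.163) or 12.2 (0.0759).

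cbfa2t2, also known as MTGR1, was close to absent from the high tumors. Low tumor 9.2 held 56.7 CPM, and low tumors 10.2 and 12.2 held 12.97 and 11.13 CPM. No high tumor had more than 3 counts: the lowest, median and highest levels were 0, 0.0450 and 0.172 CPM, with 9 counts in all against 2172 in the low tumors. Tumor 9.2 was 5.09-fold above 12.2, a wider range than that of pax5 in the same 3 tumors. The log2 fold change was -8.74 ± 0.71 (adjusted p = 4.42e-05), and -7.57 without tumor 9.2.

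The next question was how far the E-protein genes follow pax5. Among the low tumors the orders differed: pax5 ran 10.2, 12.2, 9.2 from the top, tcf12 ran 10.2, 9.2, 12.2, and cbfa2t2 ran 9.2, 10.2, 12.2. The order of tcf3b, 9.2, 12.2, 10.2, was that of pax5 reversed, within a range of 1.20-fold. Its 95% exact Poisson intervals in 9.2 (182.0 to 192.2 CPM) and 12.2 (173.6 to 186.7 CPM) overlapped, so the order of these neighbours is not settled. With 3 tumors these orders are descriptions only.

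Likeness of pattern was measured as the root-mean-square difference between 2 genes, in log2 units, over the 11 tumors after each gene's mean was taken away. From pax5 this was 1.49 for cbfa2t2, place 12 of 16007 genes, and 2.64 for tcf12, place 157. It was 4.70 for tcf3b, place 12922, and 4.38 for tcf3a (ENSDARG00000005915), the other E2A-type gene, place 9362. The median over all genes was 4.32. Ranked from tcf12 instead, pax5 stood at place 13112 of 16007, farther than the median gene (2.22). The places of tcf12 and pax5 thus depend on which of them the ranking starts from. cbfa2t2 thus stood nearer to pax5 than either E-protein member did. Both genes were close to absent from the high tumors and present in the low ones, which by itself brings them near each other. tcf3a lay close to the median gene, where a gene level between the groups falls, and tcf3b lay farther from pax5. The measure holds the same contrast of high and low tumors as the test, and no p is attached to it. It is not scaled to the range of each gene. A difference in the size of the gap between the groups therefore adds distance (log2 fold change -10.13 for pax5 and -3.59 for tcf12).

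**Figure D2:**
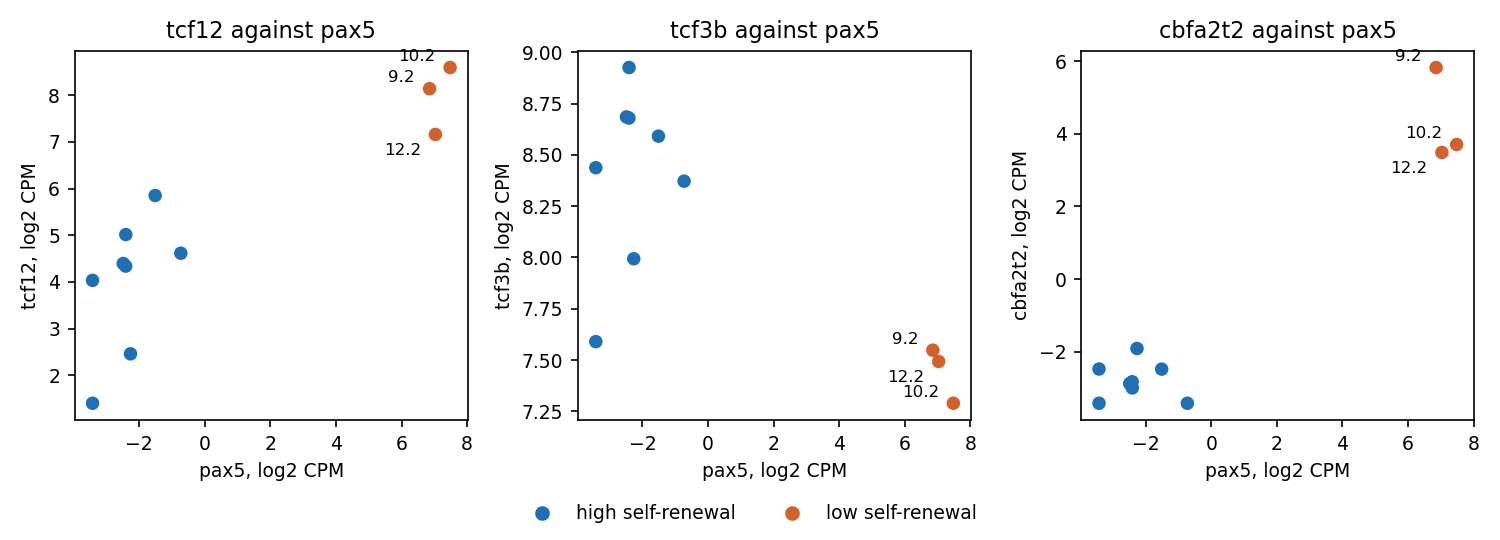
The plots against pax5 show log2 CPM of pax5 (horizontal axes) and of tcf12, tcf3b or cbfa2t2 (vertical axes, each with its own range), 1 point per tumor, blue for 8 high and orange for 3 low tumors. The tumors form separate clusters along pax5 in every panel. tcf3b is lower in the low group, where pax5 is higher, though the nearest tumors of the groups are only 1.03-fold apart in tcf3b.

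Because the tumors form separate clusters in pax5, no correlation over 11 tumors is given. Within the 8 high tumors, 6 pairs of the 4 genes were compared and none passed an exact permutation test. tcf12 and tcf3b had Pearson's r = 0.37 (exact p = 0.375, adjusted 0.693) and Spearman's rho = 0.52 (exact p = 0.197, adjusted 0.590). Without tumors 4.3.1 and 2.1, which lay farthest from the median of tcf12, r was 0.49 over 6 tumors. pax5 and tcf12 had r = 0.56 (exact p = 0.146, adjusted 0.693) and rho = 0.62 (exact p = 0.106, adjusted 0.590), and r = 0.40 without tumors 14.1.1.1 and 4.3.1. pax5 and tcf3b had r = 0.30 (exact p = 0.462, adjusted 0.693) and rho = 0.04 (exact p = 0.943, adjusted 1). For pax5 and tcf3b r was 0.59 without tumors 14.1.1.1 and 4.3.1, and a single tumor could turn its sign (-0.13 without tumor 15.2). Since pax5 had at most 6 counts and cbfa2t2 at most 3 in a high tumor, relations with these genes say little at this depth.

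The balance of the E-protein genes therefore differed between the groups. For each 100 counts of tcf3b, low tumors 9.2, 10.2 and 12.2 held 151, 247 and 79.3 counts of tcf12. The high tumors held from 0.734 (tumor 4.3.1) to 14.9 (tumor 8.4.1.1.1). The groups did not overlap in this ratio, which is not corrected for gene length and compares tumors only. The third E-protein gene, tcf3a, was level between the groups at 162.4 ± 37.3 CPM in the high (SD, n = 8) and 140.5 ± 24.5 CPM in the low tumors (SD, n = 3), with a log2 fold change of 0.21 ± 0.22 (adjusted p = 0.603). tcf4 was not analysed here. The CPM of tcf12, tcf3a and tcf3b added together was 334.4 to 678.1 in the high tumors (median 573.5) and 607.9, 659.2 and 488.7 in low tumors 9.2, 10.2 and 12.2. In this sum the groups overlapped.

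None of the 4 ID genes tested passed edgeR's test, where 1 (ID2) had an unadjusted p under 0.05. DESeq2 called 1 higher and limma-voom called 0. ID2 (ENSDARG00000055283) had 43.7 ± 39.9 CPM in the high (SD, n = 8) and 7.29 ± 8.12 CPM in the low tumors (SD, n = 3), a log2 fold change of 2.60 ± 1.01 (edgeR adjusted p = 0.134, DESeq2 adjusted p = 0.0197). ID1 ranged from 34.7 to 549.6 CPM in the high and from 30.9 to 248.5 CPM in the low tumors. The values of ID3, with a log2 fold change of -0.48 ± 0.90, and id2b, with 0.20 ± 0.55, overlapped between the groups as well, and ID4 was too low to be tested.

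The MTG corepressor family was split like the E proteins. CBFA2T3 (ENSDARG00000079012), the MTG16 gene, moved against cbfa2t2. It had 324.5, 167.4 and 150.04 CPM in low tumors 9.2, 10.2 and 12.2, and a lowest, median and highest level of 405.1, 512.1 and 747.6 CPM in the high tumors. Its log2 fold change was 1.32 ± 0.29 (adjusted p = 0.0153), a call that did not survive leaving out tumor 10.2 (adjusted p = 0.0953) or 12.2 (0.0507). RUNX1T1 (ENSDARG00000003680), the ETO gene, overlapped between the groups, with 0.388 to 57.4 CPM in the high tumors and 0, 0.0645 and 15.4 CPM in low tumors 9.2, 10.2 and 12.2. Its log2 fold change was 1.66 ± 1.74 (adjusted p = 0.599), and 1.01 to 8.72 with a tumor left out, never called.

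**Figure D3:**
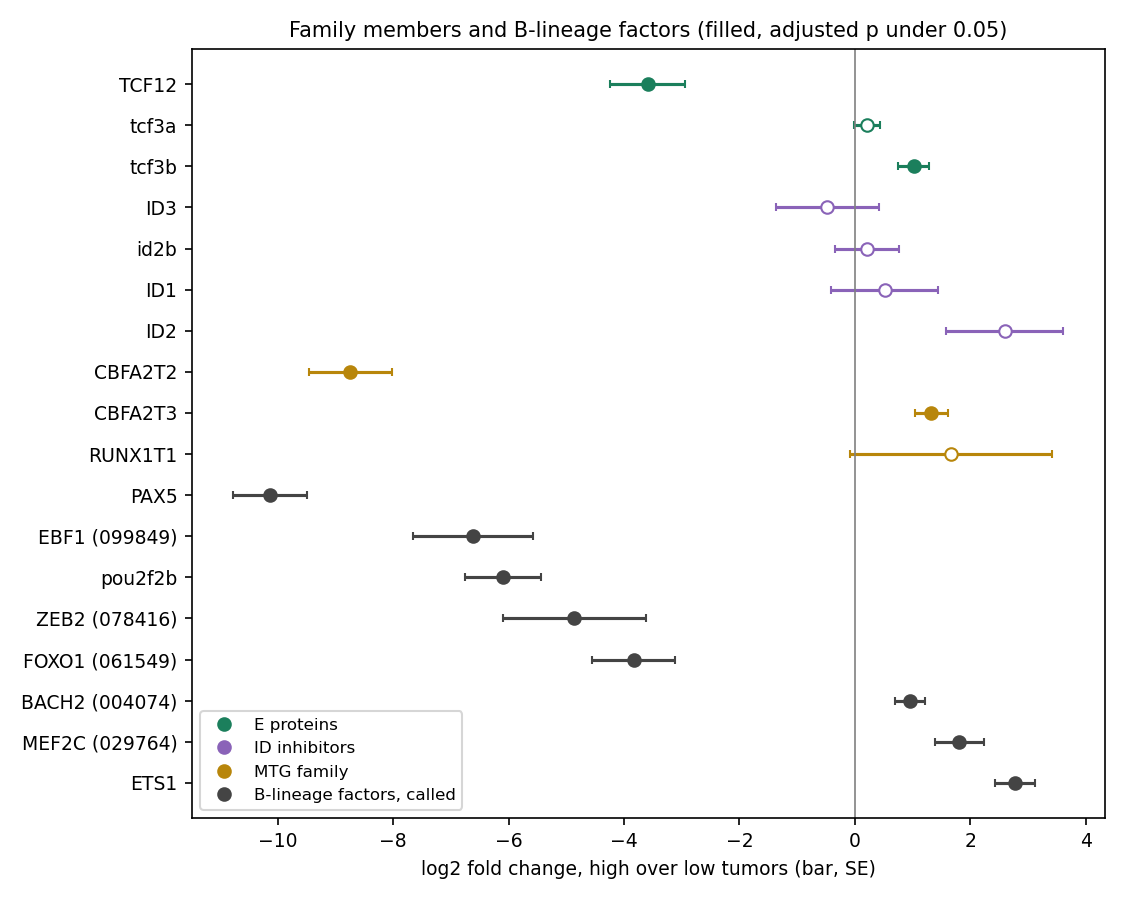
The plot of family members gives the log2 fold change, high over low tumors (horizontal axis), with its SE as a bar, for tested genes of the E-protein, ID and MTG families and for the called B-lineage factors. Filled points passed the test at an adjusted p under 0.05, and TCF12 and CBFA2T2 lie opposite their relatives tcf3b and CBFA2T3.

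The wider list of B-lineage transcription factors was divided. Of 31 tested genes, 6 were lower and 4 higher in the high tumors, and 21 were not called. Over all genes tested, 5.20% were lower and 4.0% higher. The median log2 fold change of the list was 0.21, beside 0.04 over all genes tested. Without tumor 10.2 the counts were 5 lower and 1 higher of 32, without 9.2 they were 5 and 2 of 32, and without 12.2 they were 7 and 2 of 33. Leaving out 8.4.1.1.1 gave 6 lower and 2 higher, and leaving out 13.1.1 gave 7 and 2, each of 31. pax5 and tcf12 are 2 of the 6 lower genes, and tcf3b is 1 of the 4 higher ones.

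The other lower genes were EBF1, pou2f2b, FOXO1 and ZEB2. EBF1 had 673.0, 209.1 and 109.7 CPM in low tumors 9.2, 10.2 and 12.2 and 0.388 to 11.7 CPM in the high tumors, a log2 fold change of -6.62 ± 1.03 (adjusted p = 0.00271; -5.56 without tumor 9.2, -7.23 without 14.1.1.1). Its pattern stood at place 9 from pax5. pou2f2b (ENSDARG00000019658), an octamer-binding factor of B cells, had 47.6, 61.4 and 4.49 CPM in the same low tumors and at most 1.15 CPM in a high tumor (-6.09 ± 0.65, adjusted p = 0.000272). FOXO1 (ENSDARG00000061549), a forkhead factor needed for early B-cell genes in the mouse, had 476.3, 199.0 and 94.98 CPM against 3.67 to 42.4 CPM (-3.84 ± 0.72, adjusted p = 0.00761; -3.03 without tumor 9.2). ZEB2 (ENSDARG00000078416), a zinc finger repressor, had 460.0, 153.8 and 106.1 CPM against 0.0948 to 33.6 CPM (-4.86 ± 1.24, adjusted p = 0.0324). Its highest values in the high group were in 8.4.1.1.1 and 14.1.1.1, as for EBF1, but pou2f2b and FOXO1 differed. FOXO1 was highest in 14.1.1.1 but had 7.73 CPM in 8.4.1.1.1, below the 32.6 CPM of 8.3. pou2f2b was highest in 2.1 (1.15 CPM) and had 0.0850 CPM in 14.1.1.1. The ZEB2 call was lost on leaving out tumor 2.1 (adjusted p = 0.0535), 7.2.1 (0.0517), 9.2 (0.110, log2 fold change -3.97) or 10.2 (0.0703), and its log2 fold change was -5.67 without 8.4.1.1.1. Paralogs of FOXO1 and ZEB2 were not called. The other FOXO1 gene (ENSDARG00000099555) had -1.16 (adjusted p = 0.217) and zeb2a (ENSDARG00000062338) had 0.07 (adjusted p = 0.976).

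Tumor 12.2 had a pax5 level between those of 9.2 and 10.2, while its tcf12, cbfa2t2, EBF1, pou2f2b, FOXO1 and ZEB2 were each the lowest of the 3, though for cbfa2t2 the 95% exact Poisson intervals of 12.2 (9.57 to 12.9 CPM) and 10.2 (11.7 to 14.3 CPM) overlapped. The summed level of 16 T-cell marker genes was 1387 CPM in 12.2 and 128.8 and 493.7 CPM in 9.2 and 10.2, against 5280 to 6816 CPM in the high tumors. The part of this in the levels above was not tested. Without tumor 12.2 the log2 fold changes were -10.14 for pax5, -3.86 for tcf12 and -9.06 for cbfa2t2, all called, and 1.08 for tcf3b, not called.

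The higher genes besides tcf3b were ETS1, MEF2C and BACH2. ETS1 (ENSDARG00000024431), a factor of T and B lymphocytes, had 44.1, 16.5 and 47.9 CPM in low tumors 9.2, 10.2 and 12.2 and 177.8 to 309.5 CPM in the high tumors (2.77 ± 0.35, adjusted p = 0.000761). A MEF2C gene (ENSDARG00000029764) had 1.80 ± 0.42 (adjusted p = 0.0222; 0.0968 without tumor 10.2). BACH2 (ENSDARG00000004074), a repressor that acts in B and T cells, had 57.6 to 76.0 CPM in the low and 89.7 to 192.1 CPM in the high tumors (0.96 ± 0.26, adjusted p = 0.0413). It kept its call in only 3 of 11 fits with a tumor left out, those without 14.1.1.1, 8.3 or 15.2 (adjusted p = 0.0229 to 0.126 over the 11). Paralogs of BACH2 and MEF2C were not called. bach2a (ENSDARG00000036569) had -0.21 (adjusted p = 0.663) and the other MEF2C gene (ENSDARG00000009418) had 0.87 (adjusted p = 0.633).

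**Figure D4:**
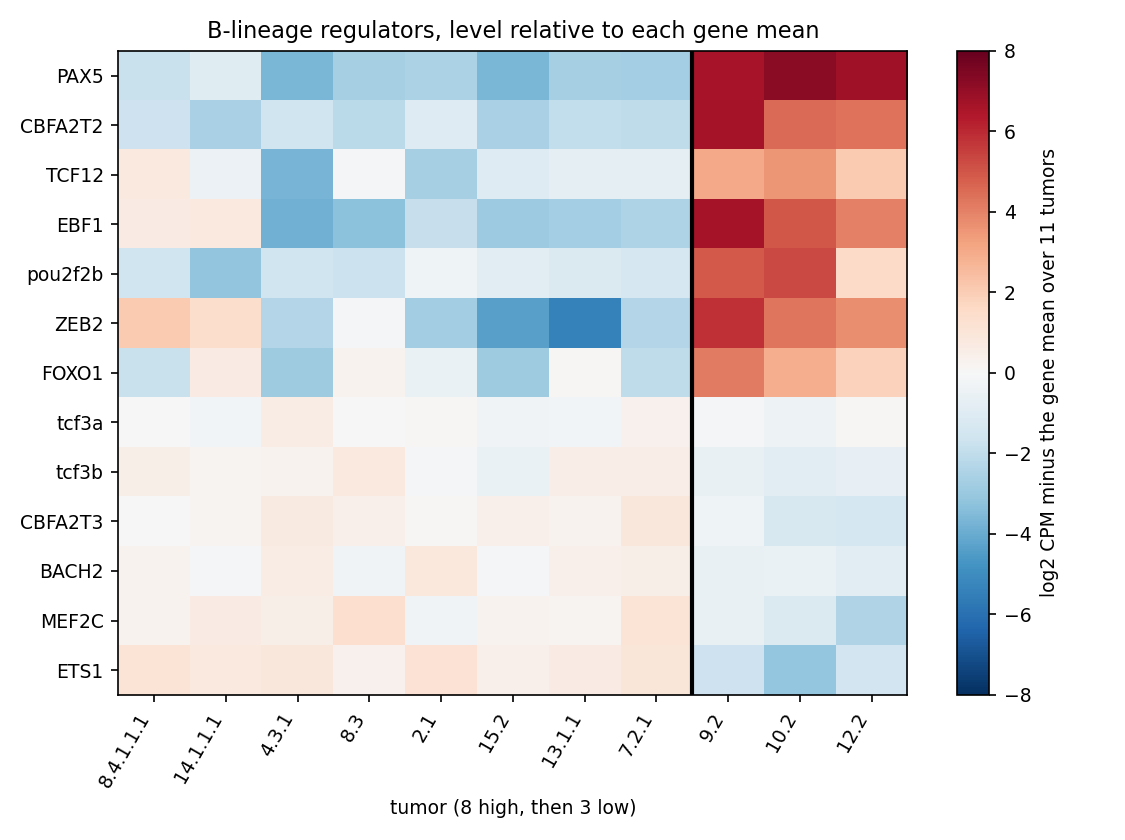
The heat map gives, for 13 regulators (rows) in 8 high and 3 low tumors (columns, divided by a black line), the difference of log2 CPM from the gene's own mean over 11 tumors. PAX5, CBFA2T2, TCF12, EBF1, pou2f2b, ZEB2 and FOXO1 are above their means in the 3 low tumors, while tcf3b, CBFA2T3, BACH2, MEF2C and ETS1 are below theirs.

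Genes known as targets of Pax5 in the mouse were divided too. The background over all genes tested was 5.20% lower and 4.0% higher in the high tumors, with a median log2 fold change of 0.04. Of 14 tested genes listed as activated, 3 were lower and 2 higher in the high tumors, with a median log2 fold change of 0.60 (-0.02 without tumor 14.1.1.1). The lower ones were EBF1, the B-cell receptor chain gene cd79a at -4.36 ± 0.43 (adjusted p = 0.000151) and the adaptor gene blnk at -6.27 ± 1.14 (adjusted p = 0.00631; -4.88 without tumor 9.2, and not called by limma-voom, adjusted p = 0.0776). blnk overlapped between the groups, since tumor 12.2 held 1.05 CPM beside 140.7 and 46.4 CPM in 9.2 and 10.2. The higher ones were BACH2 and CPLX2 (ENSDARG00000061918), a complexin gene, at 6.00 ± 1.36 (adjusted p = 0.0190; 8.95 without tumor 12.2). CPLX2 was not called without 9.2 (adjusted p = 0.0601) or 10.2 (0.0780), nor by limma-voom (0.127). Without tumor 9.2 or 10.2 none of the 14 was higher, and without 8.4.1.1.1, 4.3.1, 2.1, 13.1.1, 7.2.1 or 12.2 only 1 was.

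Of 13 tested genes listed as repressed, 3 were higher and 2 lower, with a median of 1.93 (1.24 without tumor 15.2, 1.38 without 4.3.1). Beside this, 4.0% of all genes tested were higher and 5.20% lower, with a median of 0.04. The gene at the median of the repressed list was csf1rb, at 0.0318 to 1.19 CPM in the 11 tumors and not called (adjusted p = 0.248). Both csf1ra and csf1rb are also on the list of neutrophil and macrophage genes, whose median was 1.99. The higher ones, GATA3 at 4.94 ± 1.01 (adjusted p = 0.0114), SATB1 (ENSDARG00000062621) at 5.26 ± 0.90 (adjusted p = 0.00439) and satb1a (ENSDARG00000057649) at 7.13 ± 1.93 (adjusted p = 0.0406), are genes of T-lineage transcription and chromatin. Without tumor 12.2 GATA3 stood at 7.13 and SATB1 at 7.47. satb1a was not called without 15.2 (adjusted p = 0.0613), 13.1.1 (0.0536), 7.2.1 (0.0584), 9.2 (0.124), 10.2 (0.136, log2 fold change 8.72) or 12.2 (0.110), or by limma-voom (0.107), and stood at 6.33 without 8.3. It had 1 count in the 3 low tumors together, so its fitted value depends on the prior count. The lower ones were LMO2, a cofactor of blood progenitors, at -3.83 ± 0.71 (adjusted p = 0.00688), and a NOTCH1 gene (ENSDARG00000103554) at -3.22 ± 0.82 (adjusted p = 0.0317). That NOTCH1 gene was called in 4 of 11 fits with a tumor left out, those without 8.4.1.1.1 (log2 fold change -3.85), 14.1.1.1, 8.3 or 7.2.1. The other NOTCH1 gene (ENSDARG00000052094) was not called, with a log2 fold change of -0.29 (adjusted p = 0.935). Both target lists rest on mouse work and on other genes that differ between these tumors.

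The T-cell and B-cell marker lists moved with the same groups. As a background, 4.0% of all genes tested were called higher and 5.20% lower in the high tumors. Of 15 tested T-cell marker genes, 6 were higher and none lower in the high tumors (11 of 16 higher without tumor 12.2, and 2 of 16 without 10.2), and of 12 tested B-cell marker genes 10 were lower and none higher (8 lower without 12.2). The B-cell markers summed to 1274, 1042 and 424.8 CPM in low tumors 9.2, 10.2 and 12.2 and to 5.58 to 98.8 CPM in the high tumors. In 12.2 most of the sum was SYK (206.0 CPM) and CD81 (161.9 CPM). There ighm, ighd and blnk (1.23, 0.0615 and 1.05 CPM) lay within the range of the high tumors, while cd79a and cd79b (11.3 and 8.86 CPM) lay above it. Of the 12 tested, 6 did not overlap between the groups, beside 5.84% of all genes in that direction. CD81 was called in 1 of 11 fits with a tumor left out. Of 18 tested genes of neutrophils and macrophages 1, il1b, was higher (not called without 9.2, 10.2 or 12.2), close to the share over all genes. The list still leaned upward, with a median log2 fold change of 1.99 beside a background median of 0.04. In edgeR's test 6 of the 18 had an unadjusted p under 0.05. DESeq2 called 4 of 21 genes of this list higher and 1 lower, and limma-voom called 1 higher and 1 lower. The sum over this list was 135.2 to 1720 CPM in the high and 143.2 to 368.0 CPM in the low tumors. Of 5 erythroid genes 1 was lower (a SLC4A1 gene, ENSDARG00000024560, not called without tumor 10.2 or by limma-voom), and the sum was 1.24 to 47.7 and 7.57 to 34.1 CPM. Of the thrombocyte genes only FLI1 was tested; it was higher, though not called without 9.2, 10.2 or 12.2, or by limma-voom. The PAX family had 2 tested genes, and besides pax5 the gene pax10 had 0.34 ± 0.68 (adjusted p = 0.808). Of the tissue-specific partners of E proteins only ascl1b passed the filter, at -1.33 ± 0.74 (adjusted p = 0.290). The partner neurog1, not tested, had 2.43, 11.9 and 0.246 CPM in low tumors 9.2, 10.2 and 12.2 and at most 0.0474 CPM in a high tumor. Neither the T-cell nor the B-cell marker sums overlapped between the high and low tumors. Self-renewal group and lineage marker content therefore cannot be told apart over these 11 tumors. How far the make-up of the samples set the levels of the 4 regulators was not tested.

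The genes most like each regulator over the 11 tumors were named by the same likeness measure, among genes with a usable symbol. Since that measure holds the contrast of high and low tumors, a gene near a regulator tends to share its gap by selection. The directions, sizes and calls of these genes are therefore descriptions and no separate result. For pax5 they were the proton-sensing receptor gene GPR4 (1.20), the B-cell receptor chain gene cd79b (1.21), the phospholipase D family gene pld5 (1.21), sid1 (1.24) and the semaphorin co-receptor gene NRP2 (1.44). All were lower in the high tumors, with a log2 fold change of -12.11 for sid1 and -9.68 for cd79b (-11.10 for sid1 without tumor 9.2). For cbfa2t2 they were pld5 (0.58), RASSF8 (0.80), SLC18B1 (0.83), the metalloproteinase gene MMP17 (0.85) and the activin receptor gene ACVR2B (0.90), with log2 fold changes of -8.40 for RASSF8, -7.82 for MMP17, -7.78 for SLC18B1 and -7.64 for ACVR2B. Leaving out a tumor moved RASSF8 to -7.53 (without 9.2) or -8.99 (without 8.3), MMP17 to -7.02 (without 9.2), SLC18B1 to -8.55 (without 7.2.1) and, in the pax5 group, GPR4 from -10.37 to -9.54 (without 10.2) or -11.14 (without 8.3). With so few counts in the high tumors, these fitted values depend on the prior count. pld5 was near both pax5 and cbfa2t2, at 17.2 ± 5.86 CPM in the low (SD, n = 3) and 0.00533 ± 0.0151 CPM in the high tumors (SD, n = 8).

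For tcf12 the nearest genes were fam117bb (0.90), plp2b (0.92), hibadha (0.95), the ataxin gene ATXN2 (0.98) and PRICKLE3 (1.04). Their log2 fold changes ran from -4.33 for PRICKLE3 to -3.13 for ATXN2. All were called, which the selection by likeness to tcf12 favours. However, hibadha was called in only 3 of 11 fits with a tumor left out (without 8.3, 2.1 or 4.3.1). It moved from -3.49 to -4.44 without 8.3. For tcf3b they were csnk1da (0.28), a casein kinase gene, LZTR1 (0.28), FAM114A2 (0.29), mtss1 (0.29) and SLAIN2 (0.30). Of these csnk1da (1.14 ± 0.21, adjusted p = 0.00685) and LZTR1 (1.04 ± 0.23, adjusted p = 0.0169; not called without 9.2 or 10.2) were called, and FAM114A2 (adjusted p = 0.139), mtss1 (0.196) and SLAIN2 (0.0591; 0.0437 without 9.2) were not.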

How the data were processed

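The authors deposited raw counts per gene, 1 column per library, and per the submitters' processing notes used STAR, Picard and featureCounts with the GRCz10 build. The sources used here give no versions, annotation release or strand setting, so reads of overlapping genes or of paralogs such as tcf3a and tcf3b may be confounded. Gene names came from a table of symbols, which named 26269 of 32105 identifiers. Names in capitals can be shared by paralogs. The members and the gene lists were chosen with earlier results of these data known, and the lists of Pax5 targets rest on general knowledge of the mouse. Of 215 list entries 28 were not matched.

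The tumor was the unit: its libraries, which the series text calls biological replicates, were summed. Whether each tumor came from its own fish is not in the labels (8.3 and 8.4.1.1.1 share a first number), and p-values then describe only how these tumors vary. Counts were fitted in R 4.3.3 with edgeR 4.0.16 (filterByExpr, TMM, glmQLFTest, two-sided) over 16008 genes, with p-values adjusted by the Benjamini-Hochberg method and called under 0.05. Log2 CPM used a prior count of 2, and each SE is the log2 fold change divided by the root of its F statistic. The edgeR fit used its own default prior count. Named genes are the 4 members, the 5 genes nearest to each, every measured E-protein, ID and MTG gene, and up to 6 called genes of each other list (where none is called, up to 2 with the smallest p). Others (values picked out by tumor, and uncalled paralogs of called genes) were chosen after their values were seen. The fit was also run on counts drawn with known changes, and the outcome is not reported here. Alternatives were RLE and upper-quartile factors, no filter, DESeq2 1.42.0, limma-voom (limma 3.58.1), libraries as units, and leaving out each tumor. Exact permutations and plots used Python 3.11.15, pandas 2.3.3, scipy 1.17.1 and matplotlib 3.10.9. The list of corepressor partners is not reported here.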

Additional observations from a re-analysis of the deposited data

Results flagged for a closer look

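Among the 8 high tumors, pld5 (ENSDARG00000063257) stood apart in tumor 7.2.1, with a log2 CPM of -2.88. That tumor held the only count of pld5 in the high group, and the other 7 high tumors had 0. Without tumor 7.2.1 its log2 fold change was -11.51 (adjusted p = 0.00144 in edgeR's test) in place of -10.49, fitted values that depend on the prior count and are no bound. A single count beside tumors at 0 gives such a gap by construction, so no chance rate is attached to it.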

How the results depend on the processing

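pax5, tcf12 and cbfa2t2 kept their direction and their call in all 18 alternatives, with log2 fold changes of -10.64 to -9.91, -4.04 to -3.25 and -9.12 to -7.57, and leaving out tumors gave -10.64 to -9.91, -3.95 to -3.25 and -9.12 to -7.57. tcf3b kept its direction in all 18 and lost its call in 6 of the 11 fits with a tumor left out, which gave 0.94 to 1.11 (adjusted p = 0.0140 to 0.163). The counts of all called genes moved more: 641 were higher and 832 lower in edgeR's test by tumor, 196 to 745 and 403 to 1044 with a tumor left out (fewest without 10.2), and 1754 and 1417 by DESeq2. With 20 libraries as units they were 2688 and 2272, and with the replicate block 2543 and 2199. DESeq2 and limma-voom each called 14 T-cell markers higher in place of 6, limma-voom called 6 B-cell markers lower in place of 10, and DESeq2 called 9 B-lineage factors lower in place of 6. DESeq2 gave the genes activated by Pax5 a median of -0.01, and limma-voom gave those repressed by it 1.33. The label's replicate number names a library within a tumor and pairs no tumors. Differences between the libraries of a tumor had a median correlation of -0.01 across 9 tumors. The block changed no call of the 4 genes. Within the high tumors, leaving out a tumor turned the sign of r for pax5 with cbfa2t2 (-0.45 to 0.42), pax5 with tcf3b (-0.13 to 0.47) and tcf3b with cbfa2t2 (-0.56 to 0.52), none of which passed its test. The causes were not tested. Depth limits pax5 and cbfa2t2 in the high tumors, where a tumor held at most 6 counts.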

Other observations

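XBP1 (ENSDARG00000035622), a factor of antibody-secreting cells, stood at 109.7, 111.9 and 89.7 CPM in low tumors 9.2, 10.2 and 12.2 and at 14.3 to 105.2 CPM in 7 high tumors, with 348.1 CPM in high tumor 14.1.1.1. PRDM1 (ENSDARG00000002445), another factor of those cells, was low throughout, with 1.04 ± 1.12 CPM in the high (SD, n = 8) and 0.458 ± 0.266 CPM in the low tumors (SD, n = 3). SPI1 (ENSDARG00000000767), the PU.1 gene of myeloid and B cells, had 62.4 and 77.7 CPM in tumors 9.2 and 10.2 and 3.14 CPM in 12.2, between the lowest and highest of the high tumors (0.286 and 16.1 CPM). Its log2 fold change was -3.23 ± 1.07 (adjusted p = 0.0846 in edgeR's test). These genes were chosen after their values were seen.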
